A study of Komagataella phaffii with 9 samples.

Results

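The comparison described here sets a Komagataella phaffii strain that overexpressed CRA1 against a strain from which CRA1 had been deleted (Δcra1), the largest contrast in the dose of this gene among the strains sequenced. It used 6 of the 9 RNA-seq libraries of the series, 3 for each strain, and covers 5342 of the 5344 sequences in the deposited tables, since the selection markers Kanamycin and Zeocin were left out. CRA1 (PP7435_Chr1-1522) encodes a zinc cluster transcription factor similar in sequence to Gal4 of Saccharomyces cerevisiae. All strains derived from K. phaffii CBS7435 and carried eGFP under the promoter of the glyceraldehyde-3-phosphate dehydrogenase gene (PGAP). The CRA1 overexpression strain was made with the GoldenPiCS vector system, and in the Δcra1 strain the gene was removed with a split marker cassette. The control strain had the eGFP reporter alone, and its 3 libraries are given as a level only and entered no test. Each strain was 1 representative transformant, so the spread between libraries holds no difference between transformants. Cells were precultured in YP medium, washed, grown in triplicate shake flasks on 5 g/L glucose and sampled in exponential phase, and poly(A)-enriched RNA was sequenced.

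Yeasts convert glucose to pyruvate through glycolysis. Pyruvate is then converted to acetyl-CoA by pyruvate dehydrogenase in the mitochondria and respired, or is converted by pyruvate decarboxylase and alcohol dehydrogenase to ethanol. K. phaffii is known as a Crabtree-negative yeast, which respires glucose when oxygen is present and forms little ethanol, whereas Crabtree-positive yeasts such as S. cerevisiae ferment glucose even with oxygen. In S. cerevisiae Gal4 controls the use of galactose, which K. phaffii cannot use. Roles named below are those given for the K. phaffii genes in the study's annotation, which for most genes rests on S. cerevisiae genes of the same name. That annotation was available for 714 of the 5342 sequences, 521 of them with a short name, and holds only genes that had passed the study's cutoffs in at least 1 comparison of strains.

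Total estimated counts per library were 114593 to 213647 in the overexpression strain, 192022 to 222124 in the Δcra1 strain and 106330 to 108527 in the control. With 0 counts, a gene may still hold up to 0.00262% of the smallest and 0.00140% of the largest overexpression library, for counting error only. The 3 overexpression libraries stood apart from each other. Across 2675 genes, which are not independent replicates, the correlation of log2 normalised counts was 0.711 between overexpression libraries 1 and 2, 0.849 between 1 and 3 and 0.880 between 2 and 3, against 0.939 to 0.952 between Δcra1 libraries and 0.924 to 0.928 between control libraries. Overexpression library 2 correlated with the control libraries at 0.864 to 0.867, and overexpression library 1 at 0.603 to 0.648. Results that rest on single libraries are given with and without them.

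CRA1 itself had 810, 95 and 316 counts in overexpression libraries 1, 2 and 3, against 0 counts in each Δcra1 library and 11, 11 and 11 counts in the control libraries. Both strains thus carried the transcript level that their labels call for, and overexpression library 2 had the lowest count of the 3. In normalised counts (CPM, counts relative to library totals that were scaled by TMM factors), CRA1 reached 2403 ± 1587 in the overexpression strain (SD, n = 3), at least 180-fold higher than in the Δcra1 strain when each deletion library is set at a floor of 3 counts (edgeR adjusted p = 4.96e-06), and at least 118-fold higher without overexpression library 1. The reporter egfp had 218, 72 and 133 counts in the overexpression libraries, against 27, 14 and 13 in the Δcra1 libraries and 39, 26 and 45 in the control libraries. The strains did not overlap, and the difference was 3.45 (SE 0.34, edgeR adjusted p = 1.05e-05) on the log2 scale.

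Over the whole transcriptome, 3069 sequences had enough counts to be tested and 2273 had not, 22 of which had no count in any of the 6 libraries. Calls required an adjusted p-value under 0.05 from edgeR's quasi-likelihood test together with an absolute log2 fold change of at least 1. With CRA1 overexpressed, 299 genes were called higher than with CRA1 deleted (9.74% of those tested) and 172 lower (5.6%), or 471 genes in all (15.3%). The median log2 fold change over all genes tested was 0.08. Rises of at least 3 on the log2 scale were found for 76 genes and falls of that size for 17. In 1078 of the genes tested (35.1%) the libraries of the strains did not overlap, with every overexpression library above every Δcra1 library in 551 genes and below in 527, and this held for 281 of the 299 genes called higher and for all 172 called lower. The mean of the control libraries lay between the means of both strains for 206 of the 299 genes called higher and for 117 of the 172 called lower. It lay below both strains for 60 and 52 of them, and above both for 33 and 3. With library totals in place of TMM factors the median over all genes moved by -0.13 on the log2 scale, and 236 genes were called higher and 242 lower, so that 49.4% of the calls were rises instead of 63.5%. Counts of calls also moved by over 1.5 times with single libraries left out, to 495 higher and 287 lower without overexpression library 2, 97 lower without overexpression library 3, 193 and 107 without Δcra1 library 1, 170 and 109 without Δcra1 library 2, and 181 higher without Δcra1 library 3.

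**Figure D1:**
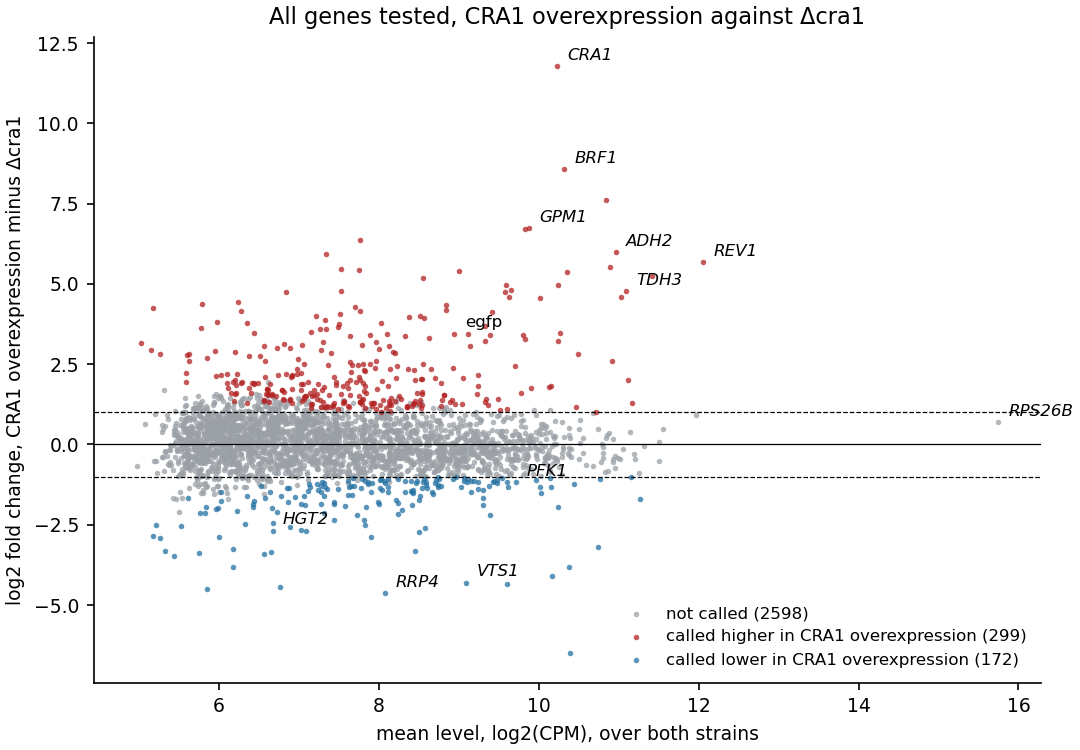
Log2 fold change (CRA1 overexpression minus Δcra1) of each of the 3069 genes tested, against the mean level over both strains in log2 CPM. Red points are the 299 genes called higher and blue points the 172 called lower, dashed lines mark log2 fold changes of 1 and -1, and CRA1 is drawn at its fitted value, which is not a measured fold because its Δcra1 counts were 0.

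The genes of glycolysis and ethanol formation were the group with the highest median change. Of 14 such genes, all of which were tested, 13 were called higher with CRA1 overexpressed and 1 lower, with a median log2 fold change of 4.15 against 0.08 over all genes tested. The list, like all lists below, was drawn from names given to genes that changed in at least 1 comparison of these strains, so its count is no independent evidence of a direction. Of the 698 annotated genes tested, from which all lists were drawn, 38.4% were called higher and 24.1% lower, or 62.5% in all, and nothing is read from a list whose shares lie near these. Glucose enters the pathway through a kinase. The hexokinase gene HXK1 (PP7435_Chr1-1362) had 138, 19 and 69 counts in the overexpression libraries, against 29, 49 and 34 in the Δcra1 libraries and 8, 8 and 9 in the control. Its strains overlapped, since overexpression library 2 lay within the range of the Δcra1 libraries in CPM, and the log2 fold change was 1.42 (SE 0.41, edgeR adjusted p = 0.0276). For the glucokinase gene GLK1 (PP7435_Chr4-0345), with 107, 13 and 60 counts in the overexpression libraries, against 10, 6 and 7 in the Δcra1 libraries, the strains did not overlap in CPM (log2 fold change 3.37, SE 0.50, edgeR adjusted p = 0.000327). Phosphoglucose isomerase, encoded by PGI1 (PP7435_Chr3-0754), had 348, 30 and 143 counts in the overexpression strain, against 24, 19 and 37 in the Δcra1 strain, again without overlap in CPM (log2 fold change 3.07, SE 0.49, edgeR adjusted p = 0.000669).

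Phosphofructokinase is built of alpha and beta subunits, and the 2 genes moved in opposite directions. The beta subunit gene PFK2 (PP7435_Chr1-0820) had 319, 31 and 103 counts in the overexpression libraries, against 6, 9 and 13 in the Δcra1 libraries and 11, 11 and 14 in the control libraries (log2 fold change 4.35, SE 0.54, edgeR adjusted p = 6.99e-05). The alpha subunit gene PFK1 (PP7435_Chr2-0897) had 157, 25 and 77 counts with CRA1 overexpressed, against 276, 243 and 258 with CRA1 deleted and 11, 10 and 9 in the control. Every overexpression library lay below every Δcra1 library, and both strains lay above the control. The log2 fold change of PFK1 was -1.16 (SE 0.33, edgeR adjusted p = 0.0279), the single call against the direction of the list. Without overexpression library 2 or 3 or any single Δcra1 library, PFK1 was no longer called, at log2 fold changes of -1.53 to -0.88 over all libraries left out in turn. HXK1 lost its call without overexpression library 1 or 3 or any single Δcra1 library (adjusted p = 0.0505 to 0.136).

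From aldolase downwards each gene rose. The aldolase gene FBA1-1 (PP7435_Chr1-0374) had 1450, 174 and 448 counts in the overexpression libraries, against 40, 31 and 38 in the Δcra1 libraries (log2 fold change 4.58, SE 0.48, edgeR adjusted p = 1.63e-05). Triose phosphate isomerase, encoded by TPI1 (PP7435_Chr3-0220), had 209, 52 and 85 counts, against 10, 10 and 10 (log2 fold change 3.95, SE 0.35, edgeR adjusted p = 4.35e-06). Glyceraldehyde-3-phosphate dehydrogenase, the enzyme whose promoter drove the reporter, is encoded by TDH3 (PP7435_Chr2-0858), which had 1415, 234 and 473 counts in the overexpression libraries, against 34, 33 and 33 in the Δcra1 libraries and 101, 87 and 94 in the control libraries. In TDH3 the lowest overexpression library stood above the highest control library, and the Δcra1 libraries were the lowest and nearly equal. Its mean level was 4218 ± 2547 CPM in the overexpression strain and 149 ± 13.4 CPM in the Δcra1 strain (SD, n = 3 each), a log2 fold change of 4.77 (SE 0.42, edgeR adjusted p = 3.82e-06). The phosphoglycerate kinase gene PGK1 (PP7435_Chr1-1075) had 667, 107 and 231 counts, against 13, 13 and 29 in the Δcra1 strain (log2 fold change 4.57, SE 0.45, edgeR adjusted p = 1.05e-05).

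The widest gap of the pathway was that of phosphoglycerate mutase. Its gene GPM1 (PP7435_Chr3-0360) had 721, 59 and 199 counts in the overexpression libraries, against 4, 0 and 7 in the Δcra1 libraries, where library 2 had none, and 18, 17 and 22 in the control libraries. The log2 fold change was 6.74 (SE 0.75, edgeR adjusted p = 2.99e-05). Enolase, encoded by ENO1 (PP7435_Chr3-1154), had 1246, 195 and 431 counts with CRA1 overexpressed, against 16, 20 and 16 with CRA1 deleted and 86, 52 and 65 in the control (log2 fold change 5.52, SE 0.46, edgeR adjusted p = 2.10e-06). Pyruvate kinase makes the pyruvate, and its gene CDC19 (PP7435_Chr2-0503) had 718, 135 and 241 counts, against 51, 40 and 62 (log2 fold change 3.23, SE 0.37, edgeR adjusted p = 3.49e-05). On the branch to ethanol, the pyruvate decarboxylase gene PDC1 (PP7435_Chr3-1042) had 872, 129 and 287 counts in the overexpression libraries, against 70, 70 and 97 in the Δcra1 libraries (log2 fold change 2.81, SE 0.39, edgeR adjusted p = 0.000203). The alcohol dehydrogenase gene ADH2 (PP7435_Chr2-0821), which in S. cerevisiae is repressed by glucose, had 1397, 156 and 469 counts, against 17, 10 and 13 in the Δcra1 strain and 62, 43 and 58 in the control (log2 fold change 5.98, SE 0.54, edgeR adjusted p = 4.65e-06). In these 5 genes the strains did not overlap, and overexpression library 1 was the highest and library 2 the lowest of the overexpression libraries.

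Single libraries moved some of these values by over 1.5 times on the linear scale. Without overexpression library 1 the log2 fold change was 3.63 for PFK2, 3.90 for FBA1-1, 5.88 for GPM1, 2.22 for PDC1 and 5.33 for ADH2, and without Δcra1 library 3 it was 7.47 for GPM1. All 5 stayed called in these settings.

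**Figure D2:**
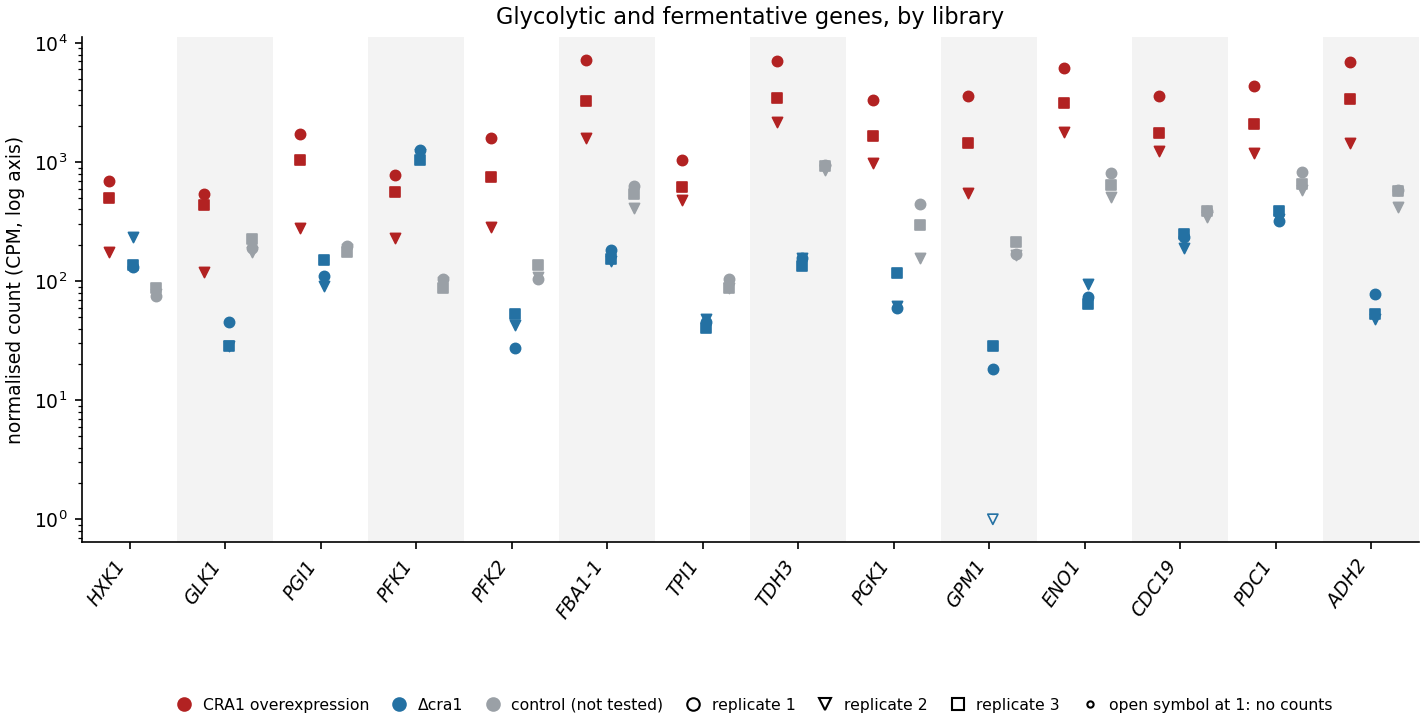
Normalised counts (CPM, log axis) of the 14 glycolytic and fermentative genes in order of the pathway, 1 symbol for each library, with CRA1 overexpression in red, Δcra1 in blue and the control, which was not tested, in grey. The overexpression symbols lie above the Δcra1 symbols in 12 genes, below them for PFK1, and overlap with them for HXK1, and an open symbol at 1 stands for no counts.

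Together the 14 genes took 4.57%, 1.19% and 2.38% of the counts of the overexpression libraries, against 0.290%, 0.288% and 0.294% in the Δcra1 libraries and 0.545%, 0.393% and 0.482% in the control libraries. The overexpression libraries were all higher than those of both other strains, and they differed most among themselves. Means were 2.71% ± 1.72 in the overexpression strain and 0.291% ± 0.003 in the Δcra1 strain (SD, n = 3 each, exact two-sided permutation test, p = 0.1, the smallest that 3 libraries against 3 allow). The means differed by 2.42 percentage points, and by 1.49 without overexpression library 1. Without PFK1 the Δcra1 libraries had 0.157%, 0.161% and 0.178%. By TPM, which corrects for transcript length, the median rank of the 14 genes among 5342 sequences was 92.5, 376.5 and 193.5 in the overexpression libraries, against 2179.5, 2286 and 2035 in the Δcra1 libraries and 1054, 1446.5 and 1141 in the control libraries. The number of the 14 genes called higher was 12 or 13 with each single library left out, and their median log2 fold change was 3.61 without overexpression library 1 and 4.40 without overexpression library 2. A strand setting for the counting is not given in the sources used here, so reads of overlapping or antisense transcripts, or of a near-identical copy of a gene, cannot be told apart in any of these counts.

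The steps that follow pyruvate rose in part. Of 9 genes for the pyruvate dehydrogenase complex and acetyl-CoA, 6 were called higher and 2 lower, with a median log2 fold change of 1.89 against 0.08 over all genes tested. That is 88.9% called, beside 62.5% of all annotated genes tested. Without Δcra1 library 2 or 3, 3 of the 9 were called higher. Subunits of the complex were PDA1 (PP7435_Chr2-0312) and PDB1 (PP7435_Chr1-1401), which encode the alpha and beta parts of its E1 component, LAT1 of the E2 component, LPD1 of E3 and PDX1, which binds E3. PDB1 had 76, 16 and 25 counts in the overexpression libraries, against 3, 8 and 7 in the Δcra1 libraries (log2 fold change 3.09, SE 0.49, edgeR adjusted p = 0.000594), and LAT1 had 84, 21 and 39 counts, against 14, 7 and 6 (log2 fold change 2.85, SE 0.43, edgeR adjusted p = 0.000362). Neither gene overlapped between strains. PDA1 was called at 2.11 (adjusted p = 0.0091), LPD1 at 1.89 (adjusted p = 0.0337), with overlap, and PDX1 at 1.37 (adjusted p = 0.0192). These 3 calls were lost with single libraries left out, that of PDA1 without Δcra1 library 2 or 3 (adjusted p = 0.0511 to 0.0647), that of LPD1 without overexpression library 1 or any single Δcra1 library (0.108 to 0.213) and that of PDX1 without any single Δcra1 library (0.0593 to 0.124). Without overexpression library 1 the log2 fold change was 1.37 for PDA1 and 0.96 for LPD1.

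Acetate is activated to acetyl-CoA by acetyl-CoA synthetases, and their 2 genes changed in opposite directions. ACS2 (PP7435_Chr3-0810) had 126, 16 and 42 counts in the overexpression libraries, against 0, 2 and 3 in the Δcra1 libraries and 17, 14 and 10 in the control libraries. The share of counts in the overexpression strain was 55.7 (95% exact counting interval 23.4 to 174) times that in the Δcra1 strain (edgeR adjusted p = 6.73e-05). That ratio for ACS2 was 31.8 without overexpression library 1 and 88.2 without Δcra1 library 3. ACS1 (PP7435_Chr2-0505) had 39, 6 and 10 counts in the overexpression libraries, against 60, 137 and 140 in the Δcra1 libraries and 5, 2 and 3 in the control (log2 fold change -2.17, SE 0.44, edgeR adjusted p = 0.00353). For ACS1 the strains did not overlap in CPM, and without overexpression library 1 the log2 fold change was -2.95. The aldehyde dehydrogenase gene ALD2 (PP7435_Chr2-0843) had 38, 31 and 38 counts with CRA1 overexpressed, against 136, 134 and 139 with CRA1 deleted and 31, 39 and 37 in the control (log2 fold change -1.33, SE 0.27, edgeR adjusted p = 0.00417). ACH1, which encodes a CoA transferase, was not called (0.11, adjusted p = 0.817).

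In the pentose phosphate pathway, which gives NADPH and precursors of nucleotides, the entry step and the later steps moved apart. Of 5 genes 4 were tested, of which 3 were called higher and 1 lower (median 1.78). That is 100% called, beside 62.5% of all annotated genes tested. Glucose-6-phosphate dehydrogenase catalyses the entry step, and its gene ZWF1 (PP7435_Chr2-0993) had 10, 0 and 2 counts in the overexpression libraries, against 22, 34 and 38 in the Δcra1 libraries and 6, 3 and 6 in the control libraries. All overexpression libraries were lower, at a log2 fold change of -2.49 (SE 0.62, edgeR adjusted p = 0.0131). Transketolase, encoded by TKL1 (PP7435_Chr1-0919), had 181, 32 and 75 counts, against 25, 23 and 28 (log2 fold change 2.33, SE 0.36, edgeR adjusted p = 0.000466), and the transaldolase gene TAL1-1 (PP7435_Chr2-0357) had 170, 13 and 62 counts, against 16, 20 and 25 (log2 fold change 2.36, SE 0.50, edgeR adjusted p = 0.00517). The 6-phosphogluconate dehydrogenase gene GND2 was called at 1.23 (adjusted p = 0.04). That call was lost without overexpression library 1 or 3 or any single Δcra1 library (adjusted p = 0.0511 to 0.19), and the call of ZWF1 without Δcra1 library 2 or 3 (0.0593 to 0.0615). Without overexpression library 1 the log2 fold change was -4.01 for ZWF1 and 1.68 for TAL1-1. TAL1-2, a further transaldolase gene beside TAL1-1, had 8, 4 and 4 counts in the overexpression libraries, against 5, 6 and 5 in the Δcra1 libraries, and was not tested.

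The annotated genes of the tricarboxylic acid cycle and the respiratory chain showed no common direction. Of 13 tested, 2 were called higher and 2 lower, and the median log2 fold change was -0.33. That is 30.8% called, beside 62.5% of all annotated genes tested. Of the cycle the list holds only LSC1, LSC2 and SDH2, since most genes of the cycle had no name here and could not be placed. SDH2, the iron-sulfur subunit of succinate dehydrogenase, had 58, 13 and 25 counts in the overexpression libraries, against 10, 16 and 23 in the Δcra1 libraries (log2 fold change 1.42, SE 0.41, edgeR adjusted p = 0.0299). QCR7, a subunit of complex III, was called at 1.16 (adjusted p = 0.033). The succinyl-CoA ligase subunit LSC2 was called lower at -1.49 (adjusted p = 0.0381), and so was BCS1, a chaperone for complex III, at -1.03 (adjusted p = 0.0229), with 83, 75 and 54 counts in the overexpression strain, against 248, 190 and 231 in the Δcra1 strain. By edgeR, 0 of the 13 were called without overexpression library 3, without Δcra1 library 2 or without Δcra1 library 3, where 5, 7 and 5 had an unadjusted p under 0.05, and 0 were called by limma on all 6 libraries. Without Δcra1 library 1, LSC2 was the single gene called. Without overexpression library 1, 1 gene was called higher and 2 lower, and without overexpression library 2, 4 higher and 2 lower. The mitochondrial gene COX2, a subunit of complex IV, had 489, 12 and 109 counts in the overexpression libraries, against 79, 184 and 175 in the Δcra1 libraries. Its log2 fold change was 0.73 (SE 0.64, edgeR adjusted p = 0.471) and was -0.48 without overexpression library 1. Without that library the values of COB and COX3 were -1.07 and -0.64, and those of LSC1, NB5M and ATP2 were -1.50, -1.92 and 0.51. ATP2, the beta subunit of the F1 ATP synthase, had a log2 fold change of 1.12 (adjusted p = 0.0595), and COB, COX3, CYT2, COQ1, GUT2, LSC1 and NB5M were not called, with values from -1.29 for NB5M to 0.22 for CYT2.

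Genes for thiamine and vitamin B6 rose almost throughout. Thiamine diphosphate is the cofactor of pyruvate decarboxylase, pyruvate dehydrogenase and transketolase, and pyridoxal phosphate, the active form of vitamin B6, is the cofactor of aminotransferases. Of 8 genes 7 were called higher, all 8 log2 fold changes were above 0 and the median was 3.42. That is 87.5% called higher, beside 38.4% of all annotated genes tested. The thiazole synthase gene THI4 (PP7435_Chr3-0552) had 760, 122 and 260 counts in the overexpression libraries, against 36, 40 and 57 in the Δcra1 libraries and 77, 60 and 51 in the control libraries. Every overexpression library was above every control library and every Δcra1 library was below (log2 fold change 3.48, SE 0.40, edgeR adjusted p = 3.60e-05). The pyrimidine branch gene THI11 (PP7435_Chr4-0952) had 567, 83 and 182 counts, against 21, 28 and 53 (log2 fold change 3.40, SE 0.45, edgeR adjusted p = 0.00011), and the kinase gene THI20 (PP7435_Chr3-0342) had 183, 37 and 86 counts, against 6, 8 and 12 (log2 fold change 3.97, SE 0.40, edgeR adjusted p = 1.30e-05). Plasma membrane uptake of thiamine is attributed to THI7 (PP7435_Chr3-0551), next to THI4 in the numbering of the genome, which had 122, 58 and 49 counts with CRA1 overexpressed, against 10, 15 and 14 with CRA1 deleted (log2 fold change 3.06, SE 0.33, edgeR adjusted p = 2.52e-05). The pyridoxine transporter gene TPN1 (PP7435_Chr1-0156) had 139, 18 and 52 counts, against 5, 4 and 6 (log2 fold change 4.16, SE 0.50, edgeR adjusted p = 6.24e-05), and SNZ3, of vitamin B6 synthesis, had 343, 39 and 135 counts, against 14, 23 and 24 (log2 fold change 3.44, SE 0.46, edgeR adjusted p = 0.000148). PET18-1, of unknown function, was called at 2.48. SNO1, which neighbours SNZ3, was the exception at 0.98 (adjusted p = 0.194), with 94, 10 and 18 counts in the overexpression libraries, against 21, 27 and 31 in the Δcra1 libraries. It was called without overexpression library 2, and its value was -0.07 without overexpression library 1. The other 7 stayed called with each library left out in turn, THI11 at 2.79 without overexpression library 1.

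Glucose sensing and repression genes changed in both directions. Of 11 tested, 6 were called higher and 4 lower (median 1.21), or 90.9% called, beside 62.5% of all annotated genes tested. The numbers called higher and lower were 3 and 2 without overexpression library 3 or Δcra1 library 1. They were 2 and 3 without Δcra1 library 2, and 3 and 3 without Δcra1 library 3. The gene HGT2 (PP7435_Chr3-1219) is annotated as a glucose transporter or sensor of high affinity and is the single gene of that kind with a name here. It had 4, 4 and 4 counts in the overexpression libraries, against 52, 29 and 37 in the Δcra1 libraries and 3, 0 and 1 in the control libraries. The Δcra1 libraries stood apart from all others, and the log2 fold change was -2.68 (SE 0.47, edgeR adjusted p = 0.00132). GRR1, an F-box protein that in S. cerevisiae acts in glucose signalling, fell in the same comparison, with 19, 13 and 18 counts, against 71, 54 and 63 (log2 fold change -1.32, SE 0.31, edgeR adjusted p = 0.0098). The kinase gene SAK1 (PP7435_Chr2-0641), whose product activates the SNF1 complex in S. cerevisiae, had 86, 71 and 95 counts in the overexpression libraries, against 10, 9 and 18 in the Δcra1 libraries and 8, 7 and 8 in the control. Its Δcra1 and control libraries had like counts, at unlike depths, and its overexpression libraries were all higher (log2 fold change 3.39, SE 0.35, edgeR adjusted p = 1.57e-05).

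Regulators of transcription were among the rises of the same list. The repressor gene NRG1 had 13, 23 and 16 counts in the overexpression libraries, against 8, 1 and 2 in the Δcra1 libraries (log2 fold change 2.88, SE 0.69, edgeR adjusted p = 0.0108). CAT8-2, an activator of genes for non-fermentable carbon sources in S. cerevisiae, had 49, 41 and 29 counts, against 17, 14 and 19 (log2 fold change 1.85, SE 0.35, edgeR adjusted p = 0.00245). RTG3, AZF1 and SOK2 were called at 2.13, 1.95 and 1.21 (adjusted p = 0.0169, 0.0394 and 0.0195). The glucose-repressible kinase gene RIM15 fell, with 11, 5 and 5 counts, against 28, 21 and 51 (log2 fold change -1.68, SE 0.45, edgeR adjusted p = 0.0196), and so did PP7435_Chr1-0450, with low similarity to SNF1, at -1.08 (adjusted p = 0.0156). MIG1-2, a repressor, was not called (-0.53, adjusted p = 0.53). Leaving out single libraries ended the calls of NRG1 (Δcra1 library 2 or 3), RTG3 (overexpression library 3 or Δcra1 library 1 or 2), AZF1 (overexpression library 3 or any single Δcra1 library), SOK2 (overexpression library 3 or any single Δcra1 library), RIM15 (overexpression library 3 or Δcra1 library 3), GRR1 (Δcra1 library 1) and PP7435_Chr1-0450 (overexpression library 1 or 3 or Δcra1 library 1 or 2). The adjusted p-values where lost were 0.0672 to 0.0698 for NRG1, 0.0589 to 0.102 for RTG3, 0.0888 to 0.281 for AZF1, 0.0760 to 0.102 for SOK2, 0.0816 to 0.137 for RIM15, 0.0637 for GRR1 and 0.00854 to 0.0861 for PP7435_Chr1-0450, whose fold change then fell short of the cutoff in part of the settings. The log2 fold change of NRG1 was 4.10 without Δcra1 library 1, that of RTG3 2.74 without Δcra1 library 3 and that of AZF1 1.27 without overexpression library 3.

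Genes for carbon sources other than glucose were called in both directions, with 5 of 11 lower and 3 higher (median -0.96). That is 72.7% called, beside 62.5% of all annotated genes tested. Without overexpression library 3 there were 3 calls in each direction, and limma called 1 lower and 3 higher. Transporters of acetate and lactate were among the falls. ADY2-2 (PP7435_Chr1-0736), annotated as an acetate transporter, had 4, 2 and 2 counts in the overexpression libraries, against 47, 36 and 40 in the Δcra1 libraries and 7, 11 and 7 in the control libraries (log2 fold change -3.35, SE 0.46, edgeR adjusted p = 0.000186). The monocarboxylate transporter gene JEN1 (PP7435_Chr3-0773) had 1, 2 and 0 counts, against 14, 20 and 14 in the Δcra1 libraries and none in any control library. The share of counts in the Δcra1 strain was 10.6 (95% exact counting interval 3.41 to 53.1) times that in the overexpression strain (edgeR adjusted p = 0.00869, and 0.0569 without Δcra1 library 2), and 24.0 times without overexpression library 2. Catalase, encoded by CTA1, which breaks down hydrogen peroxide in peroxisomes, had 10, 0 and 7 counts with CRA1 overexpressed, against 36, 52 and 67 with CRA1 deleted (log2 fold change -2.67, SE 0.54, edgeR adjusted p = 0.00395). The rises were in fatty acid and dihydroxyacetone use. The fatty acyl-CoA oxidase gene POX1 had 95, 89 and 87 counts, against 27, 26 and 21 in the Δcra1 libraries and 91, 80 and 85 in the control (log2 fold change 2.50, SE 0.32, edgeR adjusted p = 8.70e-05). FAT1, a very long chain fatty acyl-CoA synthetase, and DAK2, a dihydroxyacetone kinase, were called at 2.07 and 1.77 (adjusted p = 0.0002 and 0.000434). In POX1 overexpression library 1 was the lowest of the 3 in CPM, unlike in the glycolytic genes.

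Among 15 genes for the uptake and use of nitrogen sources, 6 were called higher and 2 lower (median 0.44), or 53.3% called, beside 62.5% of all annotated genes tested. The proline permease gene PUT4-1 (PP7435_Chr2-1178) had 36, 43 and 53 counts in the overexpression libraries, against 0, 2 and 1 in the Δcra1 libraries and 2, 2 and 2 in the control libraries. Its share of counts in the overexpression strain was 66.6 (95% exact counting interval 22.3 to 327) times that in the Δcra1 strain (edgeR adjusted p = 2.52e-05), and 138 times without Δcra1 library 2. The activator gene GAT1 (PP7435_Chr4-0343), which in S. cerevisiae turns on genes for poor nitrogen sources, had 232, 185 and 236 counts, against 17, 13 and 11 in the Δcra1 libraries and 11, 7 and 9 in the control (log2 fold change 4.60, SE 0.33, edgeR adjusted p = 6.74e-07). All overexpression libraries of GAT1 lay far above the other 6. The urea and polyamine transporter gene DUR3-1 had 159, 160 and 196 counts, against 34, 13 and 30 (log2 fold change 3.40, SE 0.37, edgeR adjusted p = 2.66e-05), and the ammonium permease gene MEP2 had 41, 14 and 20 counts, against 0, 6 and 3 (log2 fold change 3.49, SE 0.64, edgeR adjusted p = 0.00177). Arginase, encoded by CAR1-1, fell, with 13, 13 and 18 counts, against 70, 67 and 64 (log2 fold change -1.58, SE 0.34, edgeR adjusted p = 0.00651), and SSY5, a protease of the amino acid sensor at the plasma membrane, fell at -1.79 (adjusted p = 0.0171). The call of SSY5 was lost without overexpression library 3 or Δcra1 library 1 or 2 (adjusted p = 0.063 to 0.0749). Its log2 fold change was -2.68 without overexpression library 1, and that of MEP2 was 4.44 without Δcra1 library 2.

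Amino acid synthesis was called higher in 19 of 25 genes and lower in 1 (median 1.70). That is 80% called, beside 62.5% of all annotated genes tested. BAT1, the mitochondrial branched-chain aminotransferase, had 149, 19 and 53 counts in the overexpression libraries, against 3, 13 and 11 in the Δcra1 libraries (log2 fold change 3.40, SE 0.53, edgeR adjusted p = 0.000511). ARG7, an ornithine acetyltransferase of arginine synthesis, had 11, 19 and 14 counts, against 4, 2 and 3 (log2 fold change 2.91, SE 0.62, edgeR adjusted p = 0.0054), and SER3, which opens serine synthesis, had 126, 14 and 53 counts, against 6, 17 and 22 (log2 fold change 2.49, SE 0.51, edgeR adjusted p = 0.00405). HIS5, of histidine synthesis, was called at 2.80 (adjusted p = 0.00892). The exception was SHM1, mitochondrial serine hydroxymethyltransferase, which fell, with 26, 6 and 5 counts in the overexpression strain, against 53, 31 and 55 in the Δcra1 strain (log2 fold change -1.44, SE 0.43, edgeR adjusted p = 0.0365). In 21 of the 25 genes overexpression library 1 had at least 2 times the normalised count of library 2. The number called higher was 10 without overexpression library 1, 22 without overexpression library 2, 12 without Δcra1 library 1, 8 without Δcra1 library 2 and 10 without Δcra1 library 3, and the call of SHM1 was lost without overexpression library 3 or any single Δcra1 library (adjusted p = 0.0563 to 0.14), that of HIS5 without Δcra1 library 2 or 3 (0.059 to 0.0672). Without overexpression library 1 the log2 fold change was 2.79 for BAT1 and -2.19 for SHM1.

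For nucleotide synthesis 3 of 9 genes were called higher and 0 lower by edgeR (median 0.89), with 1 lower at an unadjusted p under 0.05, and 0 were called lower by DESeq2 or limma. That is 33.3% called higher by edgeR, beside 38.4% of all annotated genes tested. With overexpression library 1 left out, 1 was called lower. The uridine/cytidine kinase gene URK1 (PP7435_Chr2-0502) had 243, 174 and 222 counts in the overexpression libraries, against 12, 9 and 15 in the Δcra1 libraries and 115, 144 and 135 in the control libraries. It was the Δcra1 libraries that stood apart here (log2 fold change 4.75, SE 0.31, edgeR adjusted p = 3.77e-07). URA1, a dihydroorotate dehydrogenase, had 76, 18 and 41 counts, against 6, 16 and 11 (log2 fold change 2.48, SE 0.43, edgeR adjusted p = 0.00114), and ADE8, of purine synthesis, was called at 1.31 (adjusted p = 0.0271), a call lost without overexpression library 3 or Δcra1 library 2 or 3 (adjusted p = 0.0973 to 0.15).

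Cytosolic ribosomal protein genes were called higher in 11 of 19 cases, with all 19 log2 fold changes above 0 and a median of 1.28. That is 57.9% of the list, below the 62.5% called in either direction among the annotated genes tested and above the 38.4% called higher. The 4 named by their fold change and separation were RPL24B, RPL19B, RPS7B and RPS20. RPS20, of the small subunit, had 89, 30 and 42 counts in the overexpression libraries, against 32, 25 and 36 in the Δcra1 libraries and 34, 27 and 19 in the control libraries (log2 fold change 1.28, SE 0.29, edgeR adjusted p = 0.00828). RPL24B, of the large subunit, had 187, 28 and 56 counts, against 35, 45 and 55 (log2 fold change 1.39, SE 0.39, edgeR adjusted p = 0.0239). RPL19B and RPS7B were called at 1.31 and 1.29 (adjusted p = 0.0205 and 0.0224). In raw counts, which are not corrected for depth, overexpression library 1 was the highest of the overexpression libraries in each of these genes. Its total of 213647 counts was also the largest, against 114593 and 139040. In 16 of the 19 genes that library had at least 2 times the normalised count of overexpression library 2. The number called higher was 2 without overexpression library 1, 17 without overexpression library 2, 2 without Δcra1 library 1 and 3 without Δcra1 library 3. It was 0 by edgeR without Δcra1 library 2, where 11 of the 19 had an unadjusted p under 0.05, 4 with library totals in place of TMM factors and 0 by limma on all 6 libraries, where 5 had an unadjusted p under 0.05. Without overexpression library 1 the log2 fold change of RPL24B was 0.74. RPS26B, the most abundant sequence of all 9 libraries, took 5.41%, 8.32% and 5.96% of the counts in the overexpression strain, against 4.29%, 4.93% and 4.29% in the Δcra1 strain (exact two-sided permutation test, p = 0.1). It was not called (log2 fold change 0.70, SE 0.40, edgeR adjusted p = 0.264).

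Ribosome assembly was mixed, with 7 of 20 genes called higher and 3 lower (median 0.22), or 50% called, beside 62.5% of all annotated genes tested. The number called higher was 4 without overexpression library 3 or Δcra1 library 3 and 3 without Δcra1 library 1 or 2, and the number called lower was 5 without overexpression library 1. The largest change of the list was the fall of RRP4 (PP7435_Chr3-0626), a core component of the RNA exosome, which had 9, 0 and 1 counts in the overexpression libraries, against 146, 104 and 101 in the Δcra1 libraries and 2, 1 and 1 in the control libraries. Here too the Δcra1 libraries stood apart (log2 fold change -4.62, SE 0.53, edgeR adjusted p = 3.80e-05), and the value was -6.80 without overexpression library 1. RIX1 and SGD1, needed for the large and the small subunit in S. cerevisiae, also fell, SGD1 with 23, 20 and 16 counts, against 101, 107 and 107 (log2 fold change -1.82, SE 0.30, edgeR adjusted p = 0.000788), and RIX1 at -1.86 (adjusted p = 0.00416). The rRNA methyltransferase gene RCM1 rose, with 86, 96 and 98 counts, against 34, 33 and 39 (log2 fold change 2.06, SE 0.32, edgeR adjusted p = 0.000466). ECM1 and BMT6 were called at 2.18 and 2.01 (adjusted p = 0.0143 and 0.0106). These 2 calls were lost without overexpression library 3 or Δcra1 library 1 or 3 for ECM1 (adjusted p = 0.0681 to 0.128) and without overexpression library 3 or Δcra1 library 1 or 2 for BMT6 (0.065 to 0.0725). RIX1 was at -2.54 without overexpression library 1.

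Of 5 genes for RNA polymerase III and its factors, 2 were called higher and 2 lower. That is 80% called, beside 62.5% of all annotated genes tested. BRF1 (PP7435_Chr2-0904), a subunit of the initiation factor TFIIIB, had the largest fitted rise of all named genes apart from CRA1. It had 433, 302 and 370 counts in the overexpression libraries, against 1, 1 and 2 in the Δcra1 libraries and 3, 5 and 2 in the control libraries. The Δcra1 and control libraries had few counts, at unlike depths, and relative to library totals the control stood above Δcra1. The overexpression libraries were all high, with a share of counts 418 (95% exact counting interval 163 to 1537) times that in the Δcra1 strain (edgeR adjusted p = 4.26e-08). The second-largest subunit of the polymerase, RET1, rose as well, with 69, 26 and 41 counts, against 15, 18 and 22 (log2 fold change 1.82, SE 0.31, edgeR adjusted p = 0.00114). TFC7 and TFC3, of the factor TFIIIC, fell, TFC7 with 23, 8 and 13 counts, against 89, 69 and 87 (log2 fold change -1.95, SE 0.30, edgeR adjusted p = 0.000466), and TFC3 at -2.02 (adjusted p = 0.0207). TFC3 lost its call without overexpression library 3 or Δcra1 library 1 or 3 (adjusted p = 0.0965 to 0.121).

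Chaperone genes were called higher in 9 of 17 cases and lower in 3 (median 1.16), so that 70.6% were called, beside 62.5% of all annotated genes tested. TCP1, the alpha subunit of the cytosolic chaperonin, had 271, 205 and 197 counts in the overexpression libraries, against 8, 16 and 12 in the Δcra1 libraries and 8, 7 and 5 in the control libraries (log2 fold change 4.81, SE 0.34, edgeR adjusted p = 6.06e-07). Another subunit of that chaperonin, CCT2, was called at 2.18 (adjusted p = 0.00789), and the cyclophilin gene CPR7 at 2.70 (adjusted p = 0.0114). The falls were those of HSP12, a membrane-associated stress protein, with 11, 4 and 2 counts, against 49, 38 and 75 (log2 fold change -2.70, SE 0.45, edgeR adjusted p = 0.000882), of the cochaperone gene SGT1 at -1.31 (adjusted p = 0.00248) and of the mitochondrial chaperonin gene HSP60 at -1.18 (adjusted p = 0.012). The calls of CCT2 and CPR7 were lost without Δcra1 library 2 (adjusted p = 0.0531 for CCT2 and 0.053 for CPR7), and that of HSP60 without overexpression library 3 or Δcra1 library 1 or 2 (adjusted p = 0.0502 to 0.0693). The number called higher was 5 without Δcra1 library 1, 2 without Δcra1 library 2 and 4 without Δcra1 library 3, and without Δcra1 library 3 the log2 fold change of CPR7 was 3.29.

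Of 8 sterol and fatty acid synthesis genes tested, 3 were called higher and 1 lower (median 0.22), or 50% called, beside 62.5% of all annotated genes tested. Without Δcra1 library 1 or 3, ERG2 and ERG27 were the genes called. The sterol isomerase gene ERG2 had 63, 58 and 92 counts in the overexpression libraries, against 11, 11 and 8 in the Δcra1 libraries and 28, 29 and 27 in the control libraries, without overlap (log2 fold change 3.44, SE 0.39, edgeR adjusted p = 3.32e-05). Another enzyme of the same pathway, the reductase encoded by ERG27, went the other way, with 63, 35 and 39 counts, against 215, 189 and 240 (log2 fold change -1.67, SE 0.24, edgeR adjusted p = 0.000284). HMG1, which encodes HMG-CoA reductase, and ERG24 were called at 1.50 and 1.28 (adjusted p = 0.0155 and 0.0163), calls that were lost without any single Δcra1 library for HMG1 (adjusted p = 0.0594 to 0.0884) and without overexpression library 3 or Δcra1 library 1 or 3 for ERG24 (0.0838 to 0.0997).

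Cell wall and adhesion genes numbered 14, with 3 called higher and 4 lower (median -0.52), or 50% called, beside 62.5% of all annotated genes tested. Without Δcra1 library 2 or 3 there were 1 higher and 2 lower, without Δcra1 library 1 there were 3 higher and 2 lower, and without overexpression library 3 there were 2 of each. The lectin-like gene FLO400 had 17, 8 and 9 counts in the overexpression libraries, against 61, 79 and 116 in the Δcra1 libraries and 3, 3 and 2 in the control libraries (log2 fold change -2.35, SE 0.33, edgeR adjusted p = 0.00024), and the agglutinin-like gene ALS3 fell at -1.36 (adjusted p = 0.00572). WSC4, a membrane protein of the endoplasmic reticulum, rose, with 62, 40 and 46 counts, against 2, 10 and 4 (log2 fold change 3.74, SE 0.46, edgeR adjusted p = 6.99e-05), and so did TOH1 and the chitin deacetylase gene CDA2, at 1.39 and 1.29 (adjusted p = 0.0185 and 0.00801). These last calls were lost without overexpression library 3 or Δcra1 library 2 or 3 for TOH1 (adjusted p = 0.0653 to 0.108) and without overexpression library 2 or Δcra1 library 2 or 3 for CDA2 (adjusted p = 0.00507 to 0.0784, the lowest of these with a fold change under the cutoff). The log2 fold change of WSC4 was 4.57 without Δcra1 library 2.

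Of 7 genes for iron and other metals tested, 3 were called higher and 2 lower (median -0.45), or 71.4% called, beside 62.5% of all annotated genes tested. The rises were those of the iron transporter gene FTH1-2, with 33, 14 and 20 counts in the overexpression libraries, against 4, 2 and 8 in the Δcra1 libraries (log2 fold change 2.76, SE 0.49, edgeR adjusted p = 0.0014), and of FRE3 and FRE8, a ferric reductase and a gene similar to metal reductases, at 2.10 and 1.75 (adjusted p = 0.00278 and 0.00126). The falls were those of SMF1, a transporter of divalent metal ions, at -1.12 (adjusted p = 0.00953) and of the zinc transporter gene YKE4 at -1.06 (adjusted p = 0.0285). SMF1 lost its call without overexpression library 3 or Δcra1 library 3 (adjusted p = 0.0556 to 0.0674) and YKE4 without overexpression library 1 or 3 or any single Δcra1 library (adjusted p = 0.0386 to 0.165).

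Of 13 DNA-binding regulators outside the lists above, 6 were called lower and 2 higher (median -1.13). That is 61.5% called, beside 62.5% of all annotated genes tested. Of those annotated genes, 24.1% were called lower and 38.4% higher. Among the 13 regulators the number called higher was 0 without Δcra1 library 1, where 4 were called lower, and 1 without Δcra1 library 2 or 3. HOT1, an activator in the osmotic stress response of S. cerevisiae, had 0, 1 and 3 counts in the overexpression libraries, against 35, 15 and 42 in the Δcra1 libraries and 18, 10 and 20 in the control libraries. The overexpression libraries stood apart as the low ones, and the share of counts in the Δcra1 strain was 15.2 (95% exact counting interval 5.74 to 57) times that in the overexpression strain (edgeR adjusted p = 0.00278). This ratio for HOT1 was 8.39 without overexpression library 1 and 42.0 without overexpression library 3. The mating-type gene MATalpha2 had 10, 3 and 13 counts, against 100, 88 and 94 in the Δcra1 libraries and 11, 11 and 9 in the control (log2 fold change -2.88, SE 0.37, edgeR adjusted p = 9.87e-05). HMS1-1, a basic helix-loop-helix protein, fell at -1.51 (adjusted p = 0.00132). The homeobox repressor gene YHP1 and the zinc cluster gene ZCF2 rose at 1.71 and 1.32 (adjusted p = 0.0129 and 0.0105), calls lost without Δcra1 library 1 or 3 for YHP1 (adjusted p = 0.0571 to 0.0792) and without Δcra1 library 1 or 2 for ZCF2 (0.0637 to 0.0664). Of the 4 histone genes 0 were called by edgeR, DESeq2 or limma, with 2 lower at an unadjusted p under 0.05 in edgeR and log2 fold changes of -0.89 to -0.60, and 3 were called lower without overexpression library 1. In the 2843 tested genes outside all lists, 191 were called higher and 133 lower, at a median of 0.06.

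**Figure D3:**
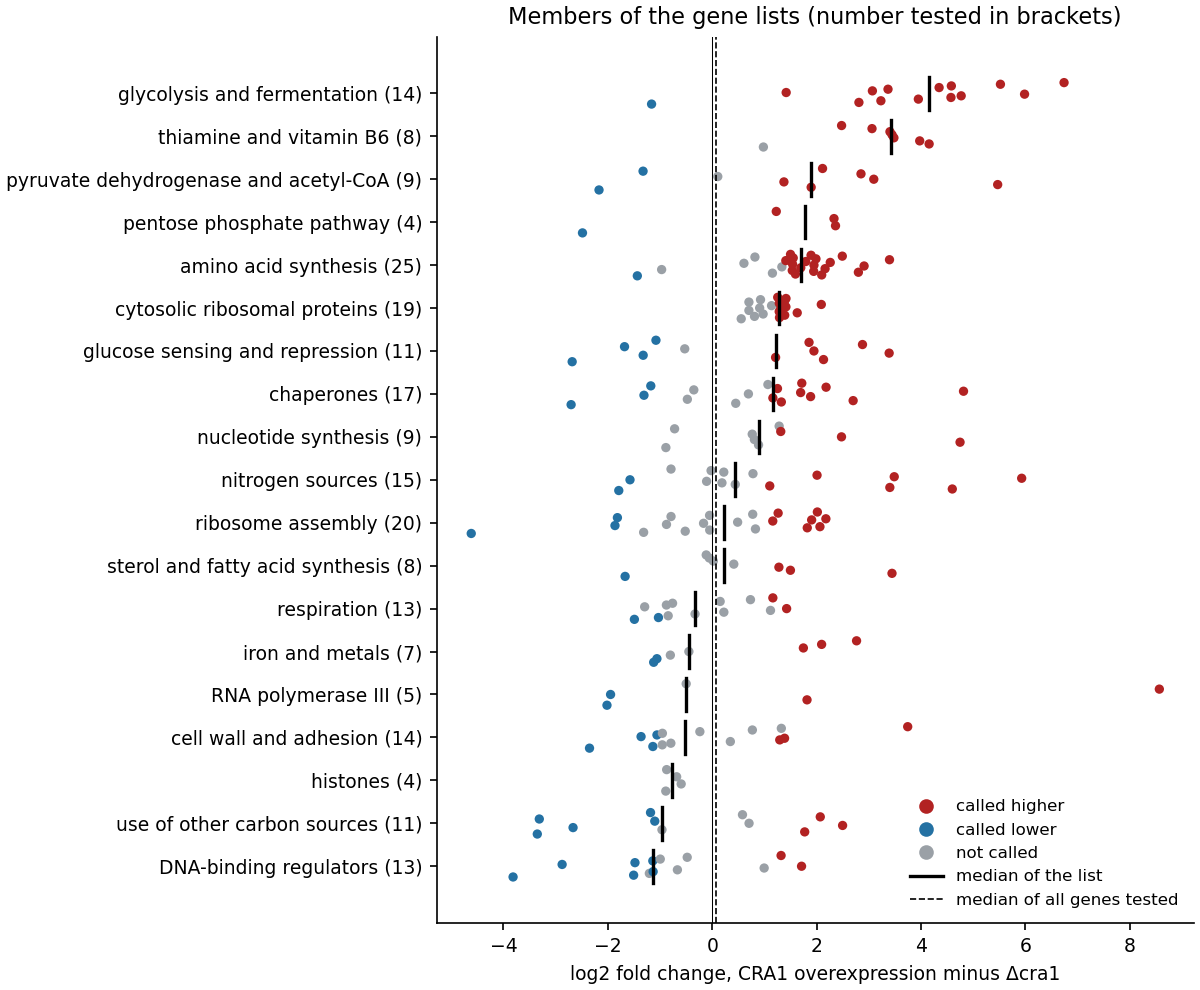
Log2 fold change (CRA1 overexpression minus Δcra1) of each tested member of the 19 gene lists, with lists ordered by their median and the number tested in brackets. Red and blue points were called higher and lower, grey points were not called, black bars are list medians, and the dashed line is the median of all genes tested (0.08), with glycolysis and fermentation at the top and DNA-binding regulators at the bottom.

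The largest changes of named genes lay outside central metabolism in part. Apart from CRA1 and the genes described above, the largest named rises included PRP2 (PP7435_Chr3-0712), an RNA helicase of splicing in S. cerevisiae, which had 242, 239 and 275 counts in the overexpression libraries, against 2, 4 and 5 in the Δcra1 libraries and 126, 123 and 178 in the control libraries. In PRP2 the Δcra1 libraries were near 0 and the other 6 were not (log2 fold change 6.71, SE 0.43, edgeR adjusted p = 2.81e-07). The DNA repair gene REV1 (PP7435_Chr2-0504) had 1363, 1071 and 1146 counts, against 31, 34 and 43 in the Δcra1 libraries and 370, 390 and 396 in the control (log2 fold change 5.67, SE 0.35, edgeR adjusted p = 2.20e-07), and MGR3 (PP7435_Chr1-2632), of a mitochondrial protease complex, had 353, 335 and 392 counts, against 10, 15 and 16 and 110, 117 and 91 (log2 fold change 5.36, SE 0.36, edgeR adjusted p = 4.82e-07). The sodium pump gene ENA2 (PP7435_Chr1-0747) was in the same position, with 628, 664 and 925 counts in the overexpression libraries, 21, 44 and 27 in the Δcra1 libraries and 246, 252 and 284 in the control libraries (log2 fold change 5.24, SE 0.43, edgeR adjusted p = 2.10e-06). For these 4 genes the mean of the control libraries lay between the means of both strains.

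Rises with few counts in the Δcra1 strain are given as ratios of counts. The phosphatase gene DOG1 (PP7435_Chr2-1289), which acts on 2-deoxyglucose-6-phosphate, had 141, 14 and 63 counts in the overexpression libraries, against 0, 2 and 1 in the Δcra1 libraries and 7, 13 and 9 in the control libraries, a ratio of 110 (95% exact counting interval 37.1 to 537) (edgeR adjusted p = 3.97e-05). For DOG1 the ratio was 70.4 without overexpression library 1 and 228 without Δcra1 library 2. The telomere and DNA repair gene YKU70 (PP7435_Chr3-0888) had 58, 55 and 65 counts, against 2, 1 and 3 in the Δcra1 libraries and 33, 25 and 22 in the control libraries, a ratio of 44.9 (95% exact counting interval 20.2 to 124) (edgeR adjusted p = 3.09e-06). Of the genes without a name, PP7435_Chr4-0289 had 626, 487 and 462 counts, against 1, 1 and 10 in the Δcra1 libraries and 70, 70 and 76 in the control (log2 fold change 7.62, SE 0.53, edgeR adjusted p = 5.54e-07). Its log2 fold change was 9.36 without Δcra1 library 3. PP7435_Chr2-0416 had 130, 133 and 156 counts, against 5, 6 and 4 (log2 fold change 5.42, SE 0.40, edgeR adjusted p = 8.08e-07). Both are annotated only by similarity to S. cerevisiae genes of putative function.

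Among the falls, the largest was that of PP7435_Chr1-1116, annotated as having low similarity to transthyretin-like proteins. It had 4, 3 and 6 counts in the overexpression libraries, against 634, 550 and 610 in the Δcra1 libraries and 9, 9 and 14 in the control libraries. The overexpression and control libraries were low and the Δcra1 libraries high (log2 fold change -6.51, SE 0.37, edgeR adjusted p = 1.50e-07). The same order was seen for the RNA-binding protein gene VTS1 (PP7435_Chr1-1486), with 10, 3 and 11 counts in the overexpression libraries, 292, 189 and 218 in the Δcra1 libraries and 2, 0 and 2 in the control libraries (log2 fold change -4.30, SE 0.36, edgeR adjusted p = 2.38e-06), and for EBS1 (PP7435_Chr4-0495), of translation inhibition and nonsense-mediated decay, with 11, 6 and 12 counts in the overexpression libraries, 133, 131 and 168 in the Δcra1 libraries and 7, 8 and 4 in the control libraries (log2 fold change -3.31, SE 0.31, edgeR adjusted p = 6.07e-06). A further 6 falls had 0 to 3 counts in each overexpression library, against 15 to 49 in each Δcra1 library, and are given as the share of counts in the Δcra1 strain over that in the overexpression strain. That ratio was 25.1 (95% exact counting interval 6.72 to 211) for PP7435_Chr1-1007, 11.9 (95% exact counting interval 3.86 to 59.5) for the biotin transporter gene VHT1, 11 (95% exact counting interval 5.2 to 28.1) for MSC1, of unknown function, and 10.9 (95% exact counting interval 4.06 to 41.2) for the phosphatase activator gene RRD1, which had 16.5 without overexpression library 2. It was 9.58 (95% exact counting interval 4.23 to 26.8) for SFT2-2, a Golgi membrane protein, and 7.6 (95% exact counting interval 2.78 to 29.1) for the kinetochore gene MTW1, whose adjusted p of 0.00928 became 0.0547 without Δcra1 library 1. The edgeR adjusted p-values of the other 5 were 0.000382 for PP7435_Chr1-1007, 0.00165 for VHT1, 0.000372 for MSC1, 0.00177 for RRD1 and 0.00132 for SFT2-2.

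**Figure D4:**
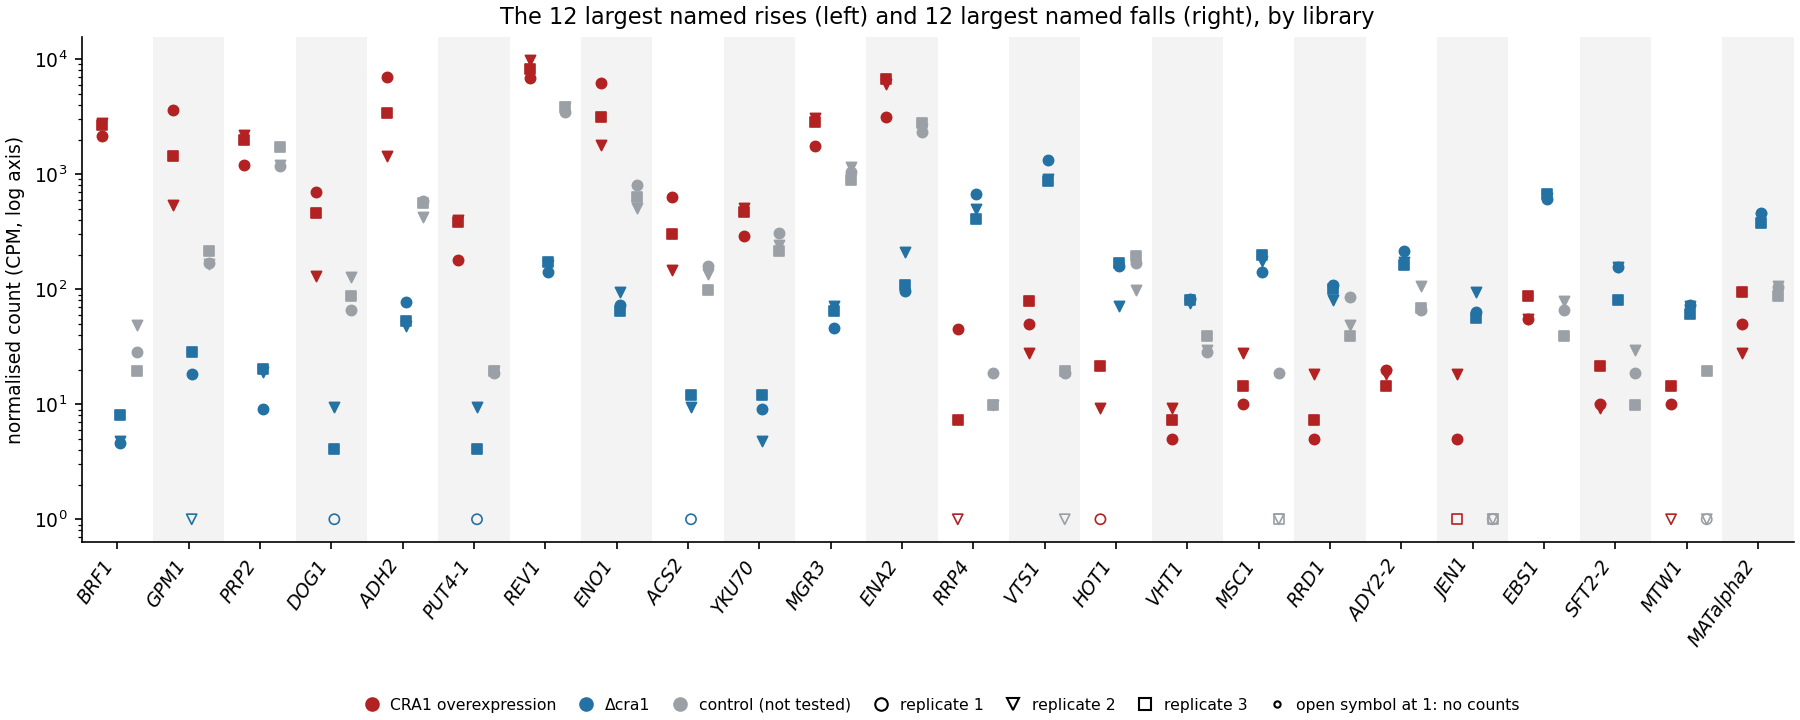
Normalised counts (CPM, log axis) in each library of the 12 named genes with the largest fitted rises (left) and the 12 with the largest fitted falls (right) among called genes whose strains did not overlap, CRA1 apart. CRA1 overexpression is red, Δcra1 blue and the control, which was not tested, grey, and open symbols at 1 stand for no counts. For REV1 the control libraries lie between the strains, and for PRP2 their mean does. For BRF1 the control is low, nearer to Δcra1 than to CRA1 overexpression.

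The spread between the overexpression libraries was itself unequal between gene groups. Overexpression library 1 had at least 2 times the normalised count of library 2 in 858 of the 3069 genes tested (28.0%), in 87 of the 299 genes called higher (29.1%) and in 23 of the 172 called lower. These counts include genes with no count in library 2, and without such genes the first was 828. Library 2 had at least 2 times the normalised count of library 1 in 271 of the genes tested. Genes with no count in library 2 are also left out of the counts that follow. Between Δcra1 libraries 1 and 2 the ratio was at least 2 in 107 genes (3.49%). Between overexpression libraries 1 and 2 it was at least 2 in 14 of 14 genes for glycolysis and fermentation and in 7 of 8 for thiamine and vitamin B6. For respiration this held in 9 of 13 genes and for glucose sensing and repression in 1 of 11. In all 14 glycolytic and fermentative genes overexpression library 2 was the lowest of the 3, and CRA1 itself had 95 counts there, against 810 and 316 in libraries 1 and 3. The part of the CRA1 level in this spread was not tested.

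**Figure D5:**
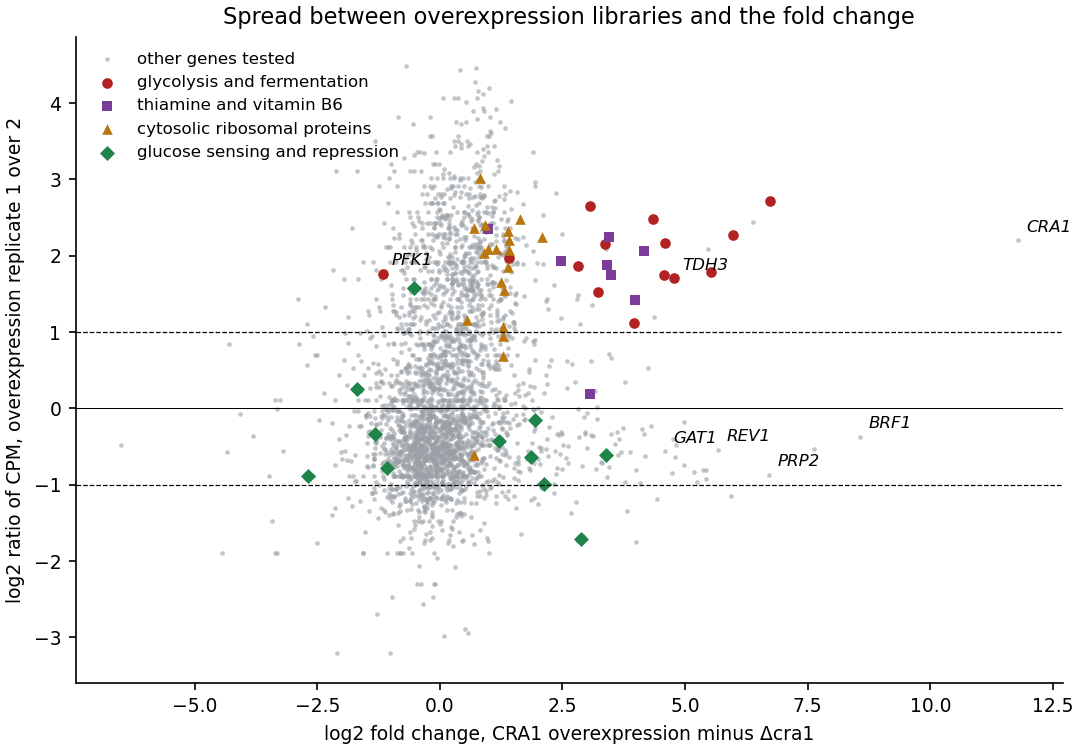
Log2 ratio of normalised counts in overexpression library 1 over library 2 against the log2 fold change (CRA1 overexpression minus Δcra1) for the genes tested, except 31 with no count in either or both of these libraries. Coloured symbols mark members of 4 gene lists, dashed lines mark ratios of 2 in both directions, and the glycolytic and fermentative genes lie above the upper dashed line in 14 of 14 cases.

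Several of the called genes are neighbours in the numbering of the genome. Of the 24 sequences numbered directly before or after a glycolytic or fermentative gene, a set chosen after the values were seen, 11 were tested, 5 were called higher and 0 lower by edgeR, with 2 lower at an unadjusted p under 0.05, and DESeq2 gave the same counts of calls. Over all genes tested 9.74% were called higher and 5.6% lower. CDC19 lies between URK1 and REV1, both described above, and ACS1, which fell, follows REV1. Besides URK1 and REV1, these 5 were PP7435_Chr3-1153 beside ENO1 (log2 fold change 3.28), PP7435_Chr1-1363 beside HXK1 (1.95) and PP7435_Chr4-0344 beside GLK1, which had 16, 6 and 10 counts in the overexpression libraries, against 1, 1 and 0 in the Δcra1 libraries. PP7435_Chr4-0344 is followed by GLK1 and preceded by GAT1, and GAT1 by HSP12, so that 3 neighbours rose and the next fell. Over the whole genome 1619 pairs of neighbouring numbers were tested. Each pair was counted from both sides. Of 322 sides called higher, 76 (23.6%) had a partner called higher, from 38 pairs, beside the 9.74% called higher over all genes tested. Of 182 sides called lower, 10 (5.49%) had a partner called lower, from 5 pairs, beside 5.6%. In 13 pairs the neighbours were called in opposite directions. Distances and strands were not used here, so overlap between neighbouring transcripts was not tested.

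Calls were spread evenly over the chromosomes, with 15.0% to 15.6% of tested genes called on each of the 4, and 7.47% of tested genes were called in the lowest of 4 bins by mean count, against 14.5% to 21.0% in the other 3. RPS26B, PP7435_Chr3-1292, PP7435_Chr2-2001, MNN2-1 and PP7435_Chr2-2034 had the highest mean TPM in both strains, RPS26B with 174071 in the overexpression strain, 118537 in the Δcra1 strain and 224858 in the control. Of these 5, 0 were called by edgeR, limma or DESeq2 without length offsets, with 1 higher at an unadjusted p under 0.05 in edgeR, and DESeq2 with offsets for effective length called MNN2-1 lower (-1.09), just past the threshold. The log2 fold changes of edgeR ran from -0.52 for the mannosyltransferase gene MNN2-1 (adjusted p = 0.197) to 0.71 for PP7435_Chr3-1292 (adjusted p = 0.0856).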

How the data were processed

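RNA-seq libraries of 3 cultures per strain were compared, and groups were taken from the sample labels. The authors trimmed the reads with Trim Galore 0.4.2 and assigned them with kallisto to the K. phaffii CBS7435 annotation with reporter and marker sequences added (kallisto 0.44.0 per the submitters' processing notes, while the methods of the study name another version). A strand setting is not given in the sources used here. The values deposited by the authors per library are estimated counts from kallisto, not scaled between libraries, and TPM, which divide those counts by transcript length and have the same sum in each library. Further tables, with counts that the authors divided by DESeq2 factors within pairs of strains, were not used here.

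After rounding of the estimated counts, the 3 overexpression and 3 Δcra1 libraries were tested with edgeR 4.0.16 in R 4.3.3 (filterByExpr, TMM factors, quasi-likelihood test, Benjamini-Hochberg adjustment over the genes tested). Genes were called at an adjusted p under 0.05 and an absolute log2 fold change of at least 1, the cutoffs of the study. Standard errors (SE) are the log2 fold change divided by the square root of the F statistic. CPM were scaled by TMM over all 9 libraries, and overlap between strains was judged on CPM. For shares of counts, the exact permutation test (two-sided) has a smallest possible p of 0.1 here. Where a strain had 0 to 3 counts in each library but not 0 in all, the ratio of scaled counts is given with a 95% exact (Clopper-Pearson) interval, which covers counting error only, since PCR copies are not independent molecules. P-values measure the spread between cultures of 1 transformant per strain.

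Alternatives were DESeq2 1.42.0, without and with effective-length offsets, RLE factors, library totals, TMM factors without the glycolytic and ribosomal protein lists, no filter, a minimum mean of 50 counts, a joint fit of all 9 libraries, limma 3.58.1 on log2(TPM + 1) and log2(TPM + 0.1) of the deposited TPM for genes whose mean TPM reached 1, a block for the replicate number, no fold change cutoff, and each library left out in turn.

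Gene names came from the study's supplementary table, and 0 identifiers occurred in the strain GS115 reference table. The 19 gene lists hold 229 genes. Members and lists were chosen with earlier results of these data known. The genes named are CRA1 and egfp, every member of 6 lists (glycolysis and fermentation, pyruvate dehydrogenase and acetyl-CoA, pentose phosphate pathway, respiration, thiamine and vitamin B6, glucose sensing and repression), up to 4 called and non-overlapping members of each other list with those against its direction, the 12 largest named rises and falls, 2 unnamed rises and falls, and the 5 sequences with the highest mean TPM. Neighbours in the genome numbering were chosen after their values were seen.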

Additional observations from a re-analysis of the deposited data

How the results depend on the processing

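No called gene and neither share changed direction under an alternative, but balances of calls did. With library totals 236 genes were called higher and 242 lower, and the median of all genes was -0.06 instead of 0.08. More falls than rises were called for glucose sensing and repression without Δcra1 library 2 (2 higher and 3 lower) and over all 9 libraries (3 and 4), and, with a mean of at least 50 counts, for pyruvate dehydrogenase and acetyl-CoA (0 and 1 of 3 tested) and for sterol and fatty acid synthesis (0 and 1 of 4 tested). More rises than falls were called for cell wall and adhesion without Δcra1 library 1 (3 and 2) and for other carbon sources by limma and with a mean of at least 50 counts (3 and 1 each). The 299 genes called higher became 94 with a mean of at least 50 counts, 136 with limma on log2(TPM + 1) and 125 with limma on log2(TPM + 0.1), and ran over 170 to 495 with each library left out. The 172 called lower became 52, 75 and 74 in these settings, and ran over 97 to 287. Calls within the gene lists, 147 in all, became 44, 56 and 52, and ran over 83 to 167, with 83 without Δcra1 library 2 and 93 without Δcra1 library 3. The stricter filter tested 997 genes instead of 3069, and the cause of the other changes was not tested. Of the glycolytic and fermentative genes, 12 or 13 were called higher with each library left out. The difference in the ribosomal protein share was 2.56 percentage points of counts and 6.58 points of TPM. In counts it ran over 1.97 to 2.94 with each library left out. RPS26B alone made up 2.06 points of counts and 5.46 points of TPM. In the control the ribosomal protein share was 9.22% of counts, above the 7.56% and 5.00% of the overexpression and Δcra1 strains. The difference in the glycolytic share ran over 1.49 to 3.19 with each library left out. DESeq2 called 286 genes higher and 168 lower, of which 282 and 165 were among those of edgeR. Limma moved the median of all genes by -0.18 and -0.19.

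With the replicate block, 229 genes were called higher and 139 lower, 228 and 139 of them among the calls without it. Deviations of same-numbered libraries from their strain means correlated at -0.42, -0.15 and 0.03, and not every library correlated best with its own number. Since the deviations are centred within each strain, these correlations depend on one another. They cannot show whether same-numbered cultures shared a batch. Over the 142 named genes tested, 2472 values were computed under alternatives, of which 2159 kept the call, 280 lost it, 7 gained it and 26 changed sign without being called. Depth limits the calls to genes with enough counts, and 2273 sequences were not tested.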
